A study of Mus musculus with 23 samples.

Results

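The nuclear genes for subunits of the respiratory chain and of ATP synthase were followed in immature myeloid cells of mouse blood during tumour growth. The members were the genes in both expression tables whose symbols start with Ndufa, Ndufb, Ndufc, Ndufs, Ndufv, Uqcr, Cox4 to Cox8 or Atp5, together with Sdha, Sdhb, Sdhc, Sdhd and Cyc1. Complex I assembly factors (Ndufaf) and pseudogenes (-ps) were left out. The rule gave 86 of 24421 genes: 38 for complex I, 4 for complex II, 9 for complex III, 18 for complex IV and 17 for complex V. The rule reads gene symbols only. The symbol rule places a few genes loosely, since Ndufa4 is now counted as a complex IV subunit, Cox7a2l as a supercomplex factor, and Atp5sl as an assembly-related gene.

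The cells were labelled MDSCs (myeloid-derived suppressor cells) and immature myeloid cells, and were taken from peripheral blood by magnetic separation. The 2 tumour models were followed at days 0, 4, 8 and 11: CT26, a colon carcinoma line, in Balbc mice, and B16, a melanoma line, in C57bl mice. Each group had 3 libraries of poly-A RNA, except B16 day 4, which had 2. The sources describe the libraries as biological repeats and do not say whether each came from its own animal, nor what day 0 animals had received, so p-values measure the spread between these libraries.

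The respiratory chain passes electrons from NADH (complex I) and succinate (complex II) through complex III and cytochrome c to oxygen (complex IV). The proton gradient made by complexes I, III and IV drives ATP synthase, complex V. Circulating neutrophils are known for few mitochondria and for drawing most of their ATP from glycolysis, whereas monocytes and platelets use oxidative phosphorylation more. All but complex II also hold subunits encoded by mitochondrial DNA. None of the 13 such genes looked up was found by symbol among the CT26 genes or tested in B16, so they could not be analysed here.

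Summed over all genes, a CT26 library held 10703698 to 14272441 normalized counts and a B16 library 12388717 to 15027698. A normalized count is a gene's read count divided by 1 factor per library, and the tables of the 2 models were normalized separately, so levels are compared within a model only. Markers of blood cells were looked up: all 6 neutrophil markers (S100a8 among them) were detected in every group and together reached 463000 to 924000 in the CT26 libraries and 546000 to 868000 in those of B16. All 6 monocyte markers were also detected. So were all 6 B cell and all 6 platelet markers, so detection alone does not show the identity or purity of the cells. The 3 B16 day 0 libraries stood apart in the ribosomal RNA precursor gene Rn45s, which took 2.57% to 3.1% of their counts against 0.427% to 1.05% in later B16 libraries and 0.343% to 0.77% in CT26. CT26 day 11 replicate 1 stood apart in several members: Uqcrb, a small complex III subunit, had 131 normalized counts there against 39.1 and 47.1 in the other day 11 libraries.

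Promoters of 5 members are shown because they carry, or lack, the recognition letters of factors known to drive respiratory genes, and because these genes moved in different ways below. RefSeq gave a promoter for 70 of the 86 members (build GRCm38.p6). Each line runs from 130 bases before to 20 bases after the start of transcription, 5′ to 3′ on the gene's strand, and capitals mark matches to the NRF1 motif or to the letters of ETS factors (CCGGAAG) on either strand. Sdha lies at chr13:74350221-74350370 on the minus strand, Sdhd at chr9:50603830-50603979 (minus), Uqcrh at chr4:116075051-116075200 (minus), Cox8a at chr19:7217597-7217746 (minus) and Atp5b at chr10:128083177-128083326 (plus).
Sdha: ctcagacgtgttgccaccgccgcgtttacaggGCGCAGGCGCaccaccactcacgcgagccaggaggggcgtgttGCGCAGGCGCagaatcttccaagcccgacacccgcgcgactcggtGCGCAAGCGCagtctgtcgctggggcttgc
Sdhd: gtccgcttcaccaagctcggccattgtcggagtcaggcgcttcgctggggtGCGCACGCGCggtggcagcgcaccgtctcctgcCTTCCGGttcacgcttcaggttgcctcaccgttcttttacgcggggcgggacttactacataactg
Uqcrh: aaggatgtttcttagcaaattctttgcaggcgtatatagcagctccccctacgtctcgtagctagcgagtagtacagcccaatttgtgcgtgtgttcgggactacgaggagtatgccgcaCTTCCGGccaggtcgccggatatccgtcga
Cox8a: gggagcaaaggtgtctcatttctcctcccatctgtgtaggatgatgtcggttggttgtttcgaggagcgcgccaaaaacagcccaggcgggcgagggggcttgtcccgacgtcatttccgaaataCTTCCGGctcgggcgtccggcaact
Atp5b: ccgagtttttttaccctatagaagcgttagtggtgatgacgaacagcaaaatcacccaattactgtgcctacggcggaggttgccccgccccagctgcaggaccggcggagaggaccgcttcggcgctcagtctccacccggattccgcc

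Within the full RefSeq window, 250 bases before to 50 after the start, the NRF1 motif stood in 22.9% of the 70 member promoters and in 6.6% of 17492 promoters of protein-coding genes. The ETS letters stood in 21.4% against 11.9%, and those of YY1 (AAGATGGC) in 14.3% against 3.22%. At least 1 of the 3 was found in 51.4% of member promoters and 19.5% of all. Sdha held 3 NRF1 matches and the Atp5b window held none of the 3 motifs. A match is a description of the letters and not of a bound site. The 4 matched promoters of tissue-restricted isoforms also held none. By call at B16 day 8, at least 1 of the 3 motifs was found in 55.6% of the 45 member promoters of lower genes. The share was 57.9% for the 19 of genes not called and 0% for the 3 of higher genes. Whether the motifs go with the direction of change was not tested, and the promoters shown do not stand for the rest.

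**Figure D1:**
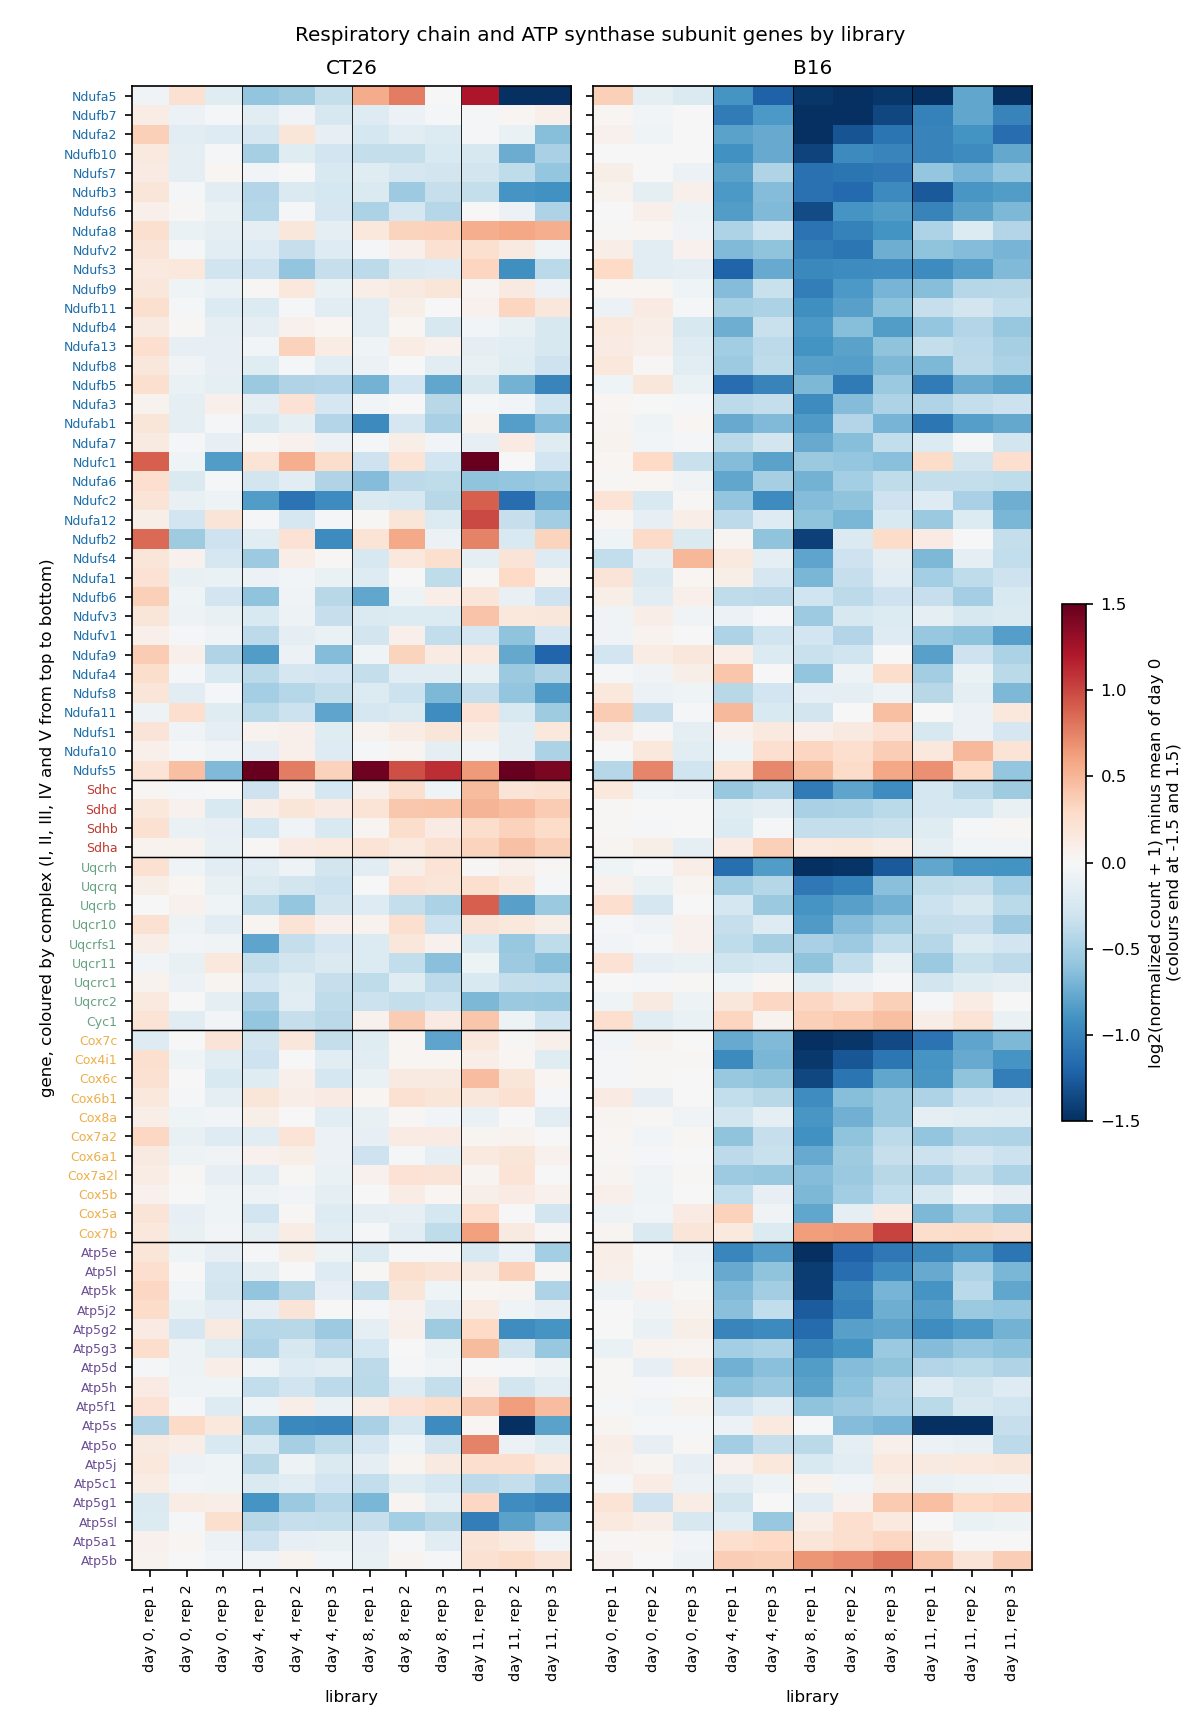
Level of the members tested in both models, 1 left out, by library, as log2(normalized count + 1) minus the mean of the model's day 0 libraries, with genes grouped by complex and ordered by their B16 day 8 change. Most rows turn blue in B16 after day 0, while CT26 rows stay pale, with complex II rows turning red at day 11.

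Of the members, 78 passed the filter on low values in CT26 (a mean of at least 5 normalized counts) and 79 in B16. Those left out were mostly isoforms known from other tissues: Cox6a2, Cox7a1 and Cox8b of heart and skeletal muscle, Cox4i2 of lung, Cox7b2 and Cox8c of testis, and Ndufa4l2, a gene induced by hypoxia. Cox7b2 was at 0 in all 23 libraries, and Cox7a1 reached 8.84 normalized counts at most, in 1 CT26 day 0 library. Their common partners were abundant: Cox4i1, Cox6a1, Cox7a2 and Cox8a each had at least 269.6 normalized counts in every library. Cox6b2, the testis form of Cox6b1, failed the filter in CT26 (0.955 to 7.14) and passed it in B16.

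Divided by the median transcript length of each gene, the level over all libraries was highest for complex IV, with a median of 1020 counts per kilobase over 11 tested genes in CT26 and 1360 over 12 in B16. Complex I had the lowest median, 146 over 37 genes in CT26 and 320 in B16. Cox6b1 (2530) and Cox8a (2290) led in CT26, and Cox8a (4900) and Cox6b1 (4300) in B16, all in counts per kilobase. Levels ranged widely within complex I, from 832 for Ndufb9 to 13.7 for Ndufs5 in CT26, although the assembled complex holds these subunits in equal number.

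In B16 most subunit genes fell after day 0. By limma over all genes tested, 43 members were lower and 4 higher at day 4, 53 lower and 6 higher at day 8, and 51 lower and 2 higher at day 11. Over all 11930 genes, 15.5% were called lower and 20.3% higher at day 4, 27.3% and 28.6% at day 8, and 21.8% and 23.9% at day 11, or 35.8%, 56% and 45.7% in either direction. The median log2 fold change of the members was -0.40, -0.58 and -0.40 at these days, against 0.01, -0.02 and -0.02 over all genes. The 3 comparisons share the day 0 libraries. Without day 4 replicate 1, 27 members were lower and 4 higher at day 4. In bulk samples such as these, fewer cells of a type and less RNA per cell cannot be told apart.

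The summed level of all members was 0.424% to 0.448% of a B16 library at day 0 and 0.290% to 0.349% in the later libraries, with no overlap. Complex I fell from 0.128 ± 0.00451% (SD, n = 3) to 0.0836 ± 0.00856% at day 8, complex IV from 0.129 ± 0.00289% to 0.0862 ± 0.0110%, and complex V from 0.111 ± 0.00351% to 0.0960 ± 0.00763%; these sums were described and not tested. The complex V sum thereby took a larger part of the members' own total, 25.6 ± 0.153% at day 0 and 30.1 ± 0.458% at day 8 (SD, n = 3). Abundant genes weigh most in such a sum, and this part does not stand for most complex V genes. At day 8 only Atp5b and Atp5a1 of its 17 genes were called higher and 9 were lower, with a median log2 fold change of -0.54. Atp5b alone went from 1642 to 1804 normalized counts at day 0 up to 2739 to 3002 at day 8. The part of complex I went from 29.5 ± 0.265% to 26.2 ± 0.3%.

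**Figure D2:**
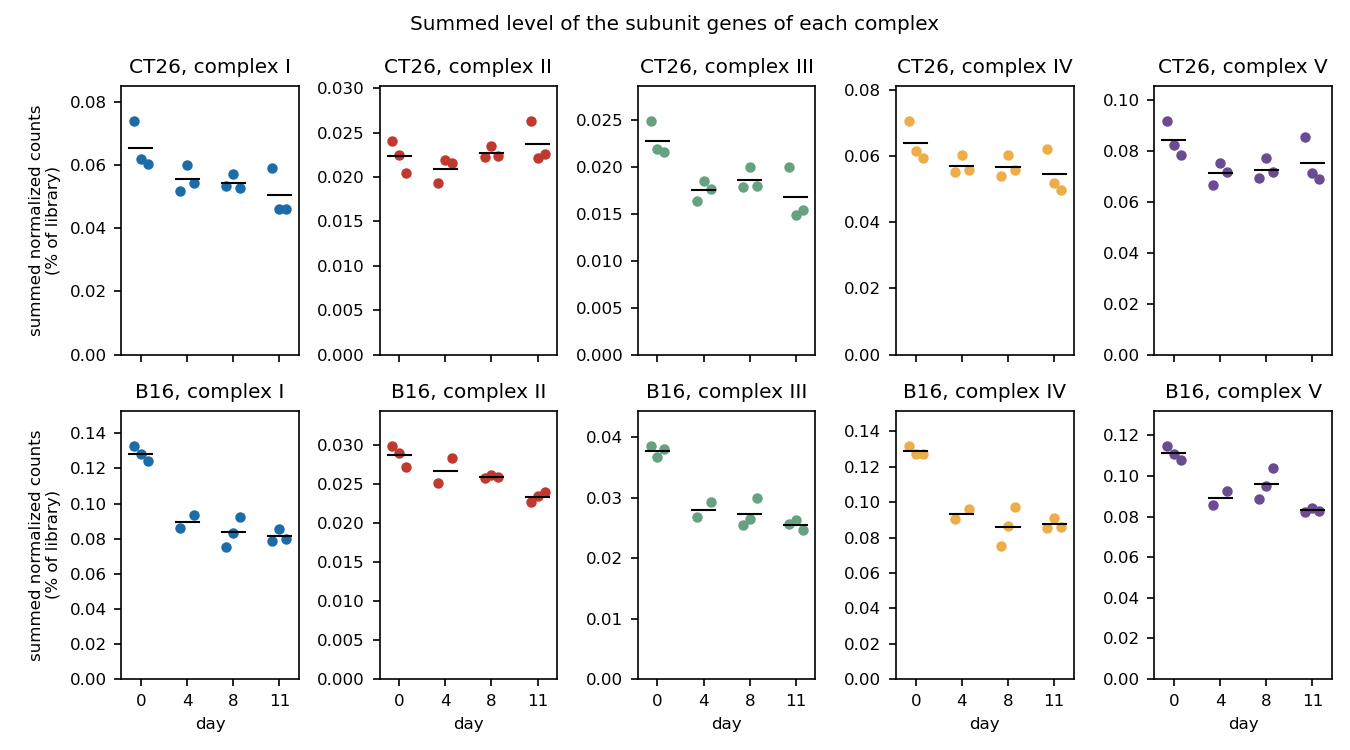
Summed normalized counts of the members of each complex as a percent of the library, by day, with 1 point per library and a line at the group mean. In B16 all later libraries lie below day 0 for complexes I, III, IV and V, while the 4 complex II genes overlap with day 0 at day 4.

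Complex I, the NADH dehydrogenase, had 22, 26 and 25 of 37 tested genes lower in B16 at days 4, 8 and 11, and none higher. Ndufb7, an accessory subunit of the membrane arm (chromosome 8, 83566671 to 83571626, plus strand), had 1571, 1495 and 1551 normalized counts at day 0. It had 746 and 845 at day 4, 476, 509 and 596 at day 8, and 761, 896 and 765 at day 11. Every later library was below every day 0 library. The fold change was -1.55 ± 0.09 on the log2 scale at day 8 (± standard error, limma adjusted p = 1.49e-07). The 7 core subunits, which carry the flavin and the iron-sulphur clusters or line the quinone site, had 5 genes lower at day 4, 5 at day 8 and 6 at day 11, with medians of -0.44, -0.64 and -0.65. Of the 30 other tested complex I genes 17, 21 and 19 were lower, with medians of -0.46, -0.62 and -0.41, and the difference was not tested. Of the core subunits, Ndufs7 had 835, 783 and 742 at day 0 and 361, 368 and 374 at day 8 (-1.09 ± 0.09, limma adjusted p = 1.16e-06). Ndufs1, the largest core subunit, was not called on any day.

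Ndufb5 and Ndufs3 were the complex I genes with the largest called falls at day 4, by -1.07 ± 0.17 and -0.98 ± 0.18 (limma adjusted p = 0.000482 and 0.000974). At day 8 Ndufa5 had the largest called fold change of any member that fell, -2.13 ± 0.53 (limma adjusted p = 0.00423), but its counts were low, 25.4 to 38.4 at day 0 and 1.75 to 10.2 at day 8. Its day 11 call (-1.45 ± 0.53, limma adjusted p = 0.0405) was lost without any 1 of 5 libraries, with adjusted p of 0.0573 to 0.138. Ndufa2 and Ndufb3 fell by -1.01 ± 0.14 and -0.99 ± 0.13 at day 11 (limma adjusted p = 9.2e-05 and 7.61e-05). Reads of Ndufs3 are uncertain, since 39.7% of the 50-base stretches of its exons also occur in other genes or pseudogenes.

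Complex III carries electrons from ubiquinol to cytochrome c. In B16, 3, 6 and 6 of 9 genes were lower at days 4, 8 and 11, and 2 were higher at day 8. Uqcrh, the hinge protein (chromosome 4, 116066965 to 116075071, minus strand), had 1503, 1534 and 1676 normalized counts at day 0. Later it had 718 and 877 (day 4), 520, 567 and 653 (day 8), and 913, 848 and 845 (day 11), all below day 0. Its day 8 change was -1.44 ± 0.10 (limma adjusted p = 2.61e-07). The core protein Uqcrc2 went the other way, with 445, 510 and 439 at day 0 and 575, 541 and 594 at day 8 (0.30 ± 0.08, limma adjusted p = 0.00905), although 24.8% of its 50-base stretches are shared with another gene. Cyc1, the cytochrome c1 subunit, rose by 0.40 ± 0.14 at day 8 (limma adjusted p = 0.0252), a call lost without day 0 replicate 2 or 3 or day 8 replicate 2 or 3 (0.0620 to 0.0928).

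Complex IV, cytochrome c oxidase, had 7, 9 and 8 of 12 genes lower in B16. Cox4i1, the common form of subunit 4 (chromosome 8, 120668222 to 120674207, plus strand), had 3434, 3547 and 3554 at day 0, 1812 and 2181 at day 4, 1287, 1444 and 1656 at day 8, and 1906, 2071 and 1907 at day 11. The groups did not overlap with day 0, and the day 8 change was -1.27 ± 0.09 (limma adjusted p = 3.78e-07). Cox7c, a small membrane subunit, fell by -1.45 ± 0.13 at day 8 (limma adjusted p = 1.42e-06), from 266 to 284 normalized counts down to 93.3 to 106. Cox8a, the most abundant B16 member per kilobase and one of those whose promoter is shown above, went from 3087 to 3300 down to 1747 to 2185 (-0.71 ± 0.07, limma adjusted p = 6.51e-06). Cox7b, another small subunit, was higher at day 8, at 260, 262 and 339 against 172, 145 and 190 at day 0 (0.76 ± 0.14, limma adjusted p = 0.000637).

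Cox6b2 was the member with the largest called rise in B16. It had 3.72, 4.10 and 11.0 normalized counts at day 0, 71.6 and 22.7 at day 4, 27.2, 54.1 and 52.4 at day 8, and 25.1, 22.7 and 18.6 at day 11. Every later library exceeded day 0, by 2.65 ± 0.52, 2.72 ± 0.47 and 1.80 ± 0.47 on the log2 scale (limma adjusted p = 0.00184, 0.000330 and 0.00774). Pf4, a platelet chemokine chosen for display after its values were seen, had 393, 274 and 1399 at day 0, then 10200 and 3713, then 2513, 5921 and 7534, then 2408, 2900 and 2512. The library with the most Pf4 also had the most Cox6b2, and the part of platelet RNA in the Cox6b2 change was not tested.

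**Figure D3:**
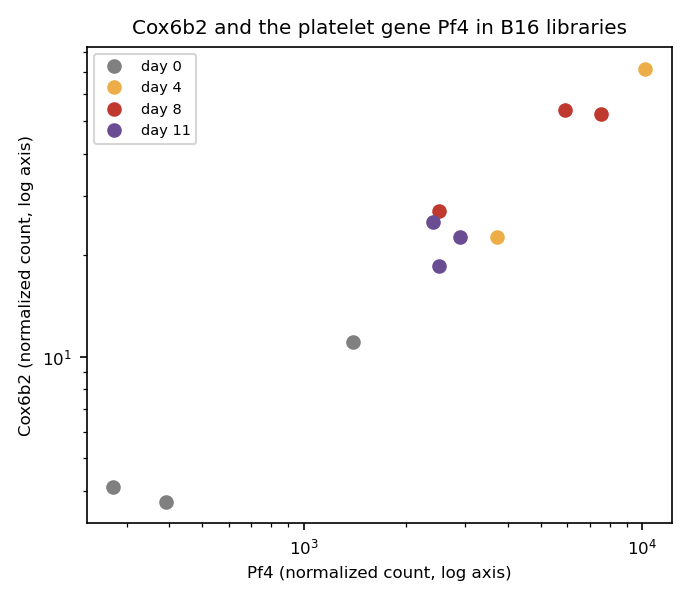
Cox6b2 against the platelet gene Pf4 in the 11 B16 libraries, in normalized counts on log axes, coloured by day. The 3 day 0 libraries hold the lowest values of both genes, up to 11.0 for Cox6b2 and 1399 for Pf4.

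Complex V showed both directions in B16. Atp5b, the catalytic beta subunit of the F1 head (chromosome 10, 128083273 to 128090391, plus strand), had 1804, 1741 and 1642 at day 0, 2230 and 2206 at day 4, 2739, 2817 and 3002 at day 8, and 2298, 1982 and 2224 at day 11. Each later library was above day 0, and the changes were 0.36 ± 0.07, 0.72 ± 0.07 and 0.32 ± 0.07 (limma adjusted p = 0.00256, 2.45e-06 and 0.00192). Its partner Atp5a1, the alpha subunit, rose by 0.28 ± 0.07 at day 4 and 0.24 ± 0.06 at day 8 (limma adjusted p = 0.00534 and 0.00342). Against these, Atp5e, the epsilon subunit of the same head, had 1485, 1379 and 1307 at day 0 and 470, 596 and 658 at day 8 (-1.29 ± 0.11, limma adjusted p = 1.68e-06). Of the 5 head subunits, 2 were higher and 2 lower at day 8, and Atp5c1, the gamma subunit, was not called.

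Of the 3 genes for the proton-carrying c ring, Atp5g2 and Atp5g3 were lower on each day and Atp5g1 was not called. The c ring genes encode the same mature protein, and 87.4% of the 50-base stretches of Atp5g2 occur in other genes. Atp5l, the g subunit, fell by -1.17 ± 0.11 at day 8 (limma adjusted p = 3.44e-06), with 84.8% of its stretches shared, so its reads cannot be placed with certainty. Atp5s, a coupling factor, fell at day 11 (-1.32 ± 0.43, limma adjusted p = 0.0244), with 15.4 to 16.1 counts at day 0 and 4.78, 2.96 and 12.1 at day 11. That call was lost without any 1 of 4 libraries (0.0538 to 0.0958).

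Complex II, succinate dehydrogenase, is the one complex that also works in the TCA cycle, and all its subunits are nuclear. In B16 Sdhc, a membrane anchor, fell on each day, from 538 to 640 at day 0 down to 276 to 332 at day 8 (-0.92 ± 0.10, limma adjusted p = 1.13e-05). Sdhd and Sdhb fell by -0.45 ± 0.06 and -0.35 ± 0.07 at day 8 (limma adjusted p = 5.69e-05 and 0.00137). Sdha, the flavin-carrying catalytic subunit, was called higher at day 4 (0.24 ± 0.09, limma adjusted p = 0.0461), with 1332 and 1568 against 1263, 1298 and 1118. The Sdha call was lost without day 0 replicate 1 or 3 or day 4 replicate 3 (0.0643, 0.128 and 0.374). It also missed the threshold with no filter (0.0592), equal totals (0.126), the length correction (0.0537) and edgeR (0.0554).

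**Figure D4:**
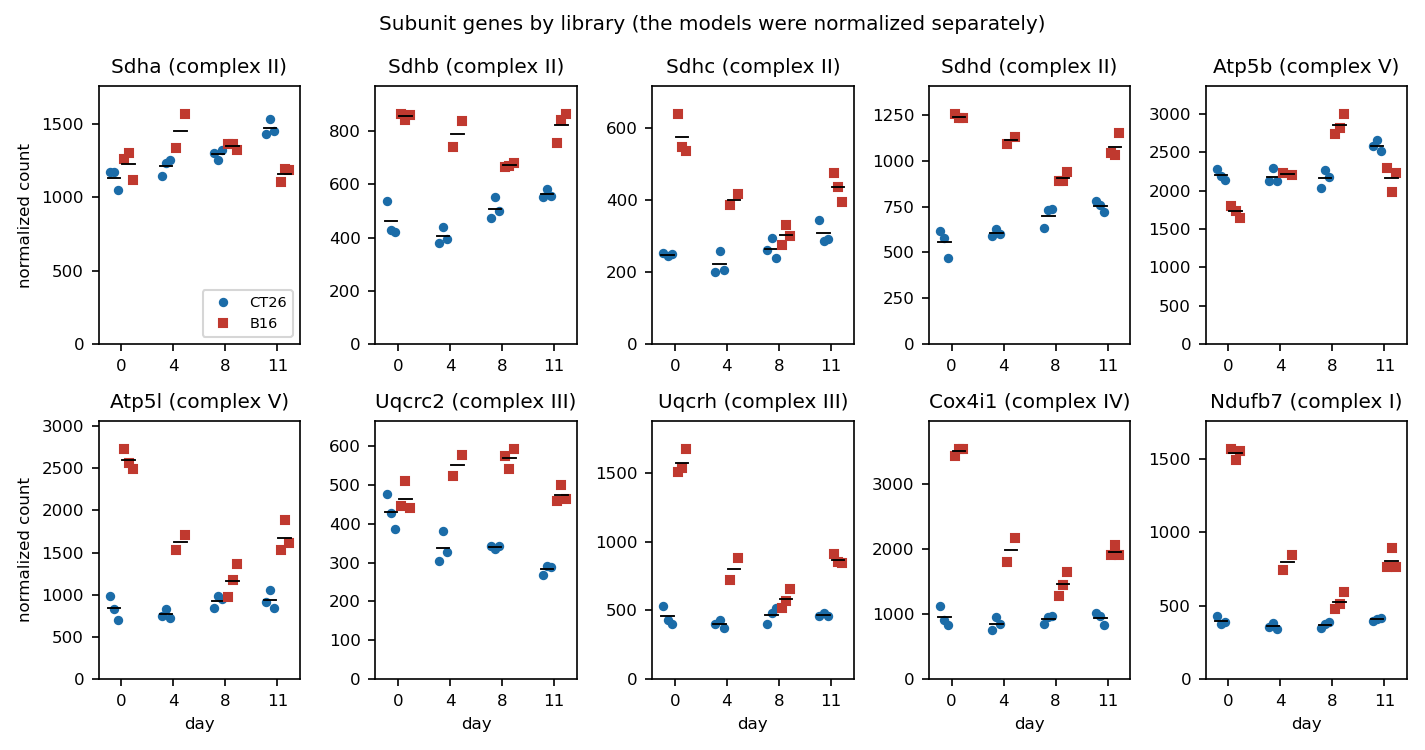
Normalized counts of 10 members by day in each library, with CT26 as circles, B16 as squares and a line at each group mean; the models were normalized separately. In B16 Uqcrh, Cox4i1, Ndufb7 and Atp5l drop below day 0 in every later library while Atp5b lies above it, and in CT26 all 4 complex II genes are highest on average at day 11.

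Transcript length moved with the B16 result. The members have short transcripts, with a median of 680 bases against 2470 over the genes tested in CT26, and 62 of 86 are under 1000 bases. At B16 day 8 the median change of all tested genes was -0.56 for transcripts under 700 bases, -0.37 for 700 to under 1500 and 0.11 for 1500 or more. The members had -0.66 over 40 genes, -0.68 over 28 and 0.14 over 11 in the same classes. Of the 6 members called higher at day 8, 4 (Atp5b, Atp5a1, Cyc1 and Uqcrc2) have 1500 bases or more.

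After each library's median deviation among genes of like length was subtracted, a correction added after the values were seen, 24 members were lower and 6 higher at B16 day 4, 32 and 13 at day 8, and 31 and 5 at day 11. Over all genes 15.4% were lower and 19.7% higher at day 4 with this correction, 25.6% and 26.6% at day 8, and 20.7% and 23.9% at day 11, or 35.1%, 52.2% and 44.6% in either direction. The member medians became -0.16, -0.15 and -0.15. All of these lower calls were among the lower calls without the correction, and they included Ndufb7, Cox4i1, Uqcrh, Atp5e and Cox7c on each day. Complex I kept 16 of 37 genes lower at day 8, while Ndufa4, Ndufa10 and Ndufa11 were then called higher. Complex V had 8 lower and 6 higher of 17, and complex II kept 1 lower, Sdhc. In complex III Uqcrh and Uqcrq stayed lower and Cyc1 and Uqcrc2 higher. In complex IV Cox4i1, Cox6c, Cox7a2l, Cox7c and Cox8a stayed lower and Cox6b2 and Cox7b higher.

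**Figure D5:**
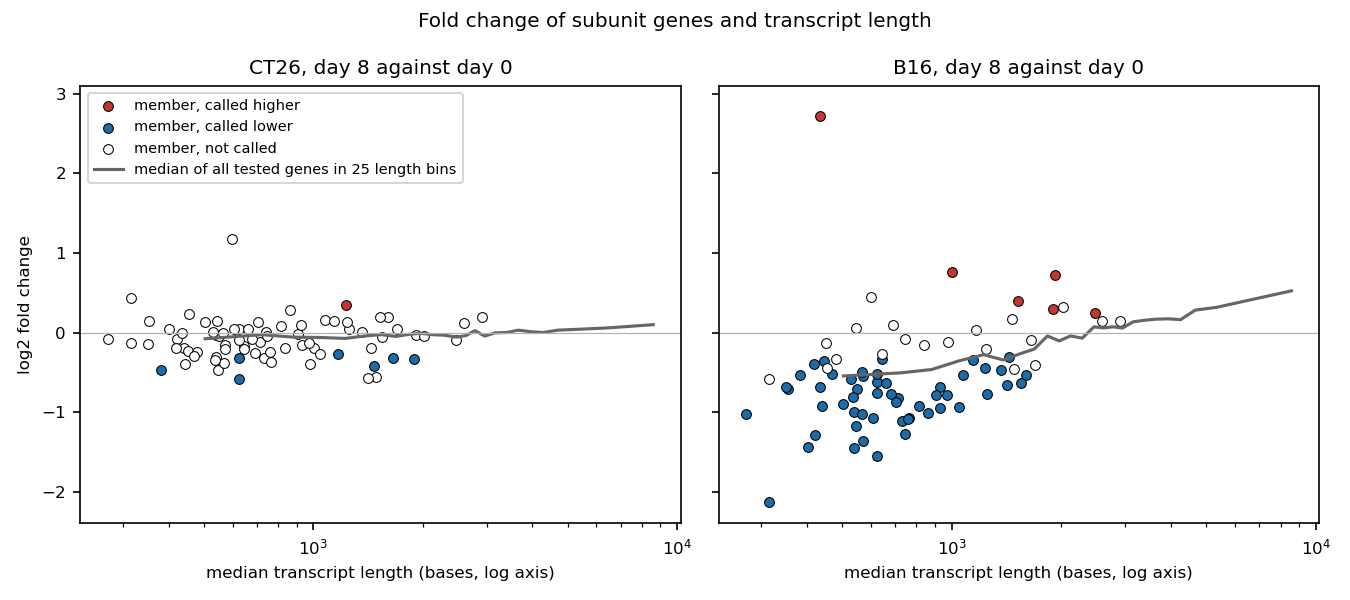
Log2 fold change at day 8 of each member against its median transcript length on a log axis, filled by its call, with a line for the median of all tested genes in 25 length bins. In B16 the line runs below 0 for short transcripts and most short members lie on or below it, and in CT26 the line stays near 0.

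Other values moved with the B16 comparison as well. The 6 platelet markers were all called higher on each day, with medians of 3.64, 3.39 and 2.39. They summed to 1610 to 6910 normalized counts at day 0, 21600 to 62000 at day 4, 17900 to 44400 at day 8 and 14000 to 16900 at day 11, and none was at 0. All 3 tested erythroid markers were higher at day 4, the sum of the list being 50.8 to 84.1 at day 0 and 665 to 729 at day 4, while Hba-a1, Hba-a2 and Hbb-bt were at 0 in each B16 group. Of 6 B cell markers, 5 were lower and 1 higher at day 8, with sums of 3760 to 4010 at day 0 and 1670 to 1920 at day 8. All 3 tested eosinophil markers were higher at day 8 (sums of 434 to 549 at day 0 and 1780 to 2050 at day 8, with Epx at 0 at day 0). All 3 tested tissue macrophage markers were higher at day 8 (sums of 1.03 to 26.5 at day 0 and 60.9 to 93.3 at day 8). Neutrophil marker sums were 637000 to 665000 at day 0, 642000 to 653000 at day 4, 546000 to 592000 at day 8 and 815000 to 868000 at day 11. Of the 6 neutrophil markers 2 were higher and 3 lower at day 8, and 4 higher and none lower at day 11. Monocyte marker sums were 9120 to 11400, 13000 to 14600, 10700 to 11100 and 14700 to 15100 on the 4 days. The part of these cell types, of Rn45s and of transcript length in the members' fall was not tested.

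Between days 4 and 11 the B16 levels changed little. One member was higher and 4 lower, against 5.72% and 4.42% of all genes (10.1% in either direction). Atp5h, the d subunit of the ATP synthase stalk, had 630 and 660 at day 4 and 847, 802 and 850 at day 11 (0.37 ± 0.09, limma adjusted p = 0.0277). The lower genes included Cox5a (-0.75 ± 0.20, with 32% of its stretches shared), Sdha (-0.32 ± 0.09) and Atp5a1 (-0.25 ± 0.07), with limma adjusted p of 0.0382, 0.0368 and 0.0324. Leaving out any 1 of the 5 libraries left at most 1 member called, and none without day 11 replicate 2. With equal library totals, 6 members were lower and none higher, with 8.11% and 3.37% of all genes.

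CT26 gave few calls at days 4 and 8, although the member medians lay below those of all genes. They were -0.16 and -0.09, against 0.02 and -0.01 over all genes. The log2 fold change was below 0 for 68 of the 78 members at day 4 and for 51 at day 8. Leaving out 1 library at a time gave medians of -0.24 to -0.08 at day 4 and -0.14 to 0.00 at day 8. At day 4, 1 member was lower and none higher (4.46% and 6.4% of all 11373 genes, 10.9% together). It was Uqcrc2, with 477, 428 and 387 at day 0 and 305, 381 and 328 at day 4 (-0.35 ± 0.10, limma adjusted p = 0.0357). The groups did not overlap, but the call was lost without day 0 replicate 1 or 2 or day 4 replicate 1 or 3 (0.0920 to 0.161). At day 8, 7 members were lower and 1 higher, against 11.8% and 15.1% of all genes (26.9% in either direction). Ndufa6 fell from 291 to 405 down to 217 to 261 (-0.47 ± 0.12, limma adjusted p = 0.00775), and Ndufb5, Atp5sl and Uqcrc2 fell by -0.59 ± 0.21, -0.42 ± 0.14 and -0.33 ± 0.10 (limma adjusted p = 0.0419, 0.0319 and 0.0217). The higher gene was Sdhd (0.34 ± 0.10, limma adjusted p = 0.0140). Without day 8 replicate 3 only 1 member was called, without day 8 replicate 1, day 0 replicate 2 or day 0 replicate 3 there were 4, and without day 8 replicate 2 there were 5. Without day 0 replicate 1 there were 3 higher and 3 lower.

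At CT26 day 11, 14 members were lower and 8 higher, where 24% and 26.3% of all genes were (50.3% in either direction), and the member median was -0.05 against -0.01. The complexes differed in their calls. All 4 complex II genes were higher, 4 of 9 complex III genes were lower, and none of 11 complex IV genes was called. Of 37 complex I genes 8 (21.6%) were lower and 2 (5.41%) higher, both below the shares of all genes. By edgeR 17 members were lower and 5 higher (26.7% and 23% of all genes), among them 2 of the 4 complex II genes, Sdha and Sdhd. Without day 11 replicate 1, the library that stood apart, 24 members were lower and 7 higher. Without day 0 replicate 1 the split turned, with 9 lower and 11 higher. Shares over all genes were not counted for these fits, so the counts cannot be read as particular to the members.

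Sdha had 1174, 1174 and 1050 normalized counts at day 0 and 1427, 1532 and 1450 at day 11 (0.38 ± 0.07, limma adjusted p = 0.000439). Sdhd had 615, 577 and 472 against 782, 759 and 719 (0.45 ± 0.10, limma adjusted p = 0.00103). Both catalytic and anchor genes thus lay above day 0 in each day 11 library. Sdhb, the iron-sulphur subunit, had 538, 428 and 420 against 553, 582 and 555 (0.30 ± 0.10, limma adjusted p = 0.0238), and Sdhc had 254, 244 and 250 against 346, 285 and 292 (0.30 ± 0.12, limma adjusted p = 0.0452), again with no overlap. The calls of Sdhb and Sdhc were lost with edgeR (0.106 and 0.143), that of Sdhb also without any 1 of 3 libraries (0.0658 to 0.107) and that of Sdhc without any 1 of 5 (0.0552 to 0.147). Those of Sdha and Sdhd held without each single library. Their part of the members' total rose from 8.65 ± 0.303% to 10.8 ± 0.404% (SD, n = 3).

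Outside complex II, Ndufa8, an accessory complex I subunit, rose from 273 to 359 up to 442 to 453 (0.56 ± 0.11, limma adjusted p = 0.000643). Atp5f1, the b subunit of the ATP synthase stalk, rose by 0.50 ± 0.10 (limma adjusted p = 0.000524), with 38.7% of its 50-base stretches shared with other genes. Ndufs5 was called higher (1.27 ± 0.45, limma adjusted p = 0.0281) from counts of 1.99 to 5.46 at day 0 and 6.31 to 14.95 at day 11, and the call was lost without day 0 replicate 3, day 11 replicate 2 or day 11 replicate 3 (0.0749 to 0.126). The largest falls were of Atp5sl (-0.84 ± 0.14), Ndufb3 (-0.71 ± 0.16), Ndufb5 (-0.65 ± 0.21) and Ndufs8 (-0.60 ± 0.15), with limma adjusted p of 9.87e-05, 0.00176, 0.0151 and 0.00311. Atp5sl had 134, 152 and 183 at day 0 and 74.9, 88.6 and 97.7 at day 11, without overlap. The Ndufb5 call was lost without day 0 replicate 1 or day 11 replicate 3 (0.0740 and 0.0804).

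The CT26 split depended on scaling. Scaling the libraries to equal totals, which moved the median of all genes to -0.10, -0.18 and -0.29 at days 4, 8 and 11, left no member higher and 8, 21 and 34 lower. Over all genes 6.91%, 24.4% and 40.7% were then lower and 4.2%, 10.2% and 15% higher. The complex II median was 0.05 at day 11 with this scaling and none of its 4 genes was called. The median of all genes moved with it (0.34 against -0.01, and 0.05 against -0.29). Scaling moves all genes of a library almost alike, so the distance between these medians is no separate check. In B16 the same scaling left 49, 47 and 63 members lower and 3, 9 and 2 higher, with 17.9%, 21.7% and 29.8% of all genes lower and 18.1%, 34.2% and 17.2% higher.

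Against day 4, 15 members were higher and 3 lower at CT26 day 11 (19.8% and 18.1% of all genes, 37.9% together), but 3 higher and 10 lower with equal totals (13.2% and 28.7% of all genes) and 10 higher and 8 lower by edgeR (17.9% and 21%). Ndufa8 (0.60 ± 0.11), Atp5f1 (0.52 ± 0.10) and Sdhb (0.48 ± 0.10) rose under both scalings, with limma adjusted p of 0.000546, 0.000533 and 0.00134 in the authors' scaling. Atp5o, a stalk subunit, was called higher (0.53 ± 0.19, limma adjusted p = 0.0411) with 228 counts in day 11 replicate 1 against 128 and 120. Without that library its change was 0.23 (0.210), the call was also lost without any 1 of the 3 day 4 libraries (0.0505 to 0.129), and 50.3% of its stretches are shared. Atp5sl, Ndufs7 and Ndufa13 fell by -0.47 ± 0.14, -0.33 ± 0.11 and -0.32 ± 0.11 (limma adjusted p = 0.0140, 0.0237 and 0.0327). The Ndufs7 call was lost without any 1 of 3 libraries (0.0762 to 0.107) and that of Ndufa13 without any 1 of 4 (0.0564 to 0.176). Without day 4 replicate 1, 8 members were higher and 3 lower.

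Marker lists moved in CT26 too. Of 6 neutrophil markers 5 were higher at day 11, with sums of 463000 to 556000 at day 0 and 725000 to 924000 at day 11. All 6 B cell markers were lower at day 11 (sums of 2050 to 2250 at day 0 and 240 to 548 at day 11), as were all 4 tested eosinophil markers (4500 to 4860 and 852 to 1010). All 5 tested tissue macrophage markers were higher at days 8 and 11, their list summing to 3.98 to 4.55 at day 0 and 964 to 7770 at day 11, with C1qa at 0 at day 0. Their part in the members' changes was not tested.

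The day responses of the models were then compared in 1 limma fit over both tables, as the CT26 change minus the B16 change, for 78 members and 10989 genes. At day 4, 14 members had a higher change in CT26 and 3 a lower one (9.24% and 11.7% of all genes, 20.9% together). At day 8 there were 40 and 6 (23.7% and 26.6%, 50.3% together), and at day 11 there were 30 and 4 (20.8% and 22.3%, 43.1% together). The median difference was 0.26, 0.55 and 0.36 over the members and -0.02, -0.04 and -0.01 over all genes. With the length correction 7, 22 and 20 members were higher and 6, 14 and 6 lower, against 9.82%, 23% and 20.8% of all genes higher and 11.8%, 25.6% and 23% lower (21.6%, 48.6% and 43.8% together). With equal totals 10, 23 and 18 were higher and 3, 9 and 4 lower, while 7.24%, 14.4% and 15% of all genes were higher and 14.7%, 39.8% and 28.2% lower.

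At day 8, 9 of the 11 complex IV genes had a higher change in CT26 and Cox7b a lower one, and at day 11, 8 had a higher change. Of the 4 complex II genes, none was called at day 4, 3 at day 8 and all 4 at day 11. Single genes differed by up to 1.48 ± 0.15 for Uqcrh and 1.45 ± 0.13 for Ndufb7 at day 8 (limma adjusted p = 6.55e-08 and 4.85e-09), since neither was called in CT26 and both fell in B16. Atp5b and Uqcrc2 had the opposite sign, -0.75 ± 0.09 and -0.63 ± 0.13 (limma adjusted p = 6.29e-07 and 0.000337). Without B16 day 4 replicate 1 the day 4 calls were 5 higher and 3 lower, and without CT26 day 11 replicate 1 the day 11 median was 0.21. Mouse strain, tumour line and table differ together between the models and cannot be told apart.

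Genes that work with these subunits were counted from lists. Of assembly factors, which build the complexes, 44 were tested in B16 and 8, 17 and 12 were lower at days 4, 8 and 11, with 2 higher on each day. Over all genes 15.5%, 27.3% and 21.8% were lower on these days, and 20.3%, 28.6% and 23.9% were higher. Timmdc1, a complex I assembly factor, fell by -1.33 ± 0.15 at day 8, and Atpaf1, which helps to assemble the F1 head, rose by 1.5 ± 0.26 (limma adjusted p = 1.42e-05 and 0.000371). In CT26, 7 of 41 were higher and 7 lower at day 11, no larger a share than the 26.3% and 24% of all genes. Of 17 TCA cycle enzymes, 9 were lower and 1 higher at CT26 day 11, against 24% and 26.3% of all genes. Idh3g, a subunit of isocitrate dehydrogenase, fell there by -0.53 ± 0.08 and rose in B16 at day 8 by 0.81 ± 0.09 (limma adjusted p = 3.95e-05 and 9.09e-06). At B16 day 8, 4 TCA enzymes were higher and 3 lower, below the 28.6% and 27.3% of all genes.

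Of 16 tested regulators of mitochondrial biogenesis 5 were higher and 5 lower at B16 day 8, a share near the 28.6% and 27.3% of all genes. Esrra, a nuclear receptor that drives respiratory genes, fell by -0.84 ± 0.09 (limma adjusted p = 5.16e-06). In CT26 Tfam, which packages and transcribes mitochondrial DNA, fell by -1.31 ± 0.24 at day 11 (limma adjusted p = 0.000211), with 5 of 15 regulators lower and 2 higher (24% and 26.3% of all genes). Of 13 coenzyme Q and cytochrome c genes, 4 were lower and 2 higher at B16 day 8, and 3 lower and none higher at CT26 day 11. The shares that were lower were near those of all genes (27.3% at B16 day 8 and 24% at CT26 day 11). Of all genes 28.6% were higher at B16 day 8 and 26.3% at CT26 day 11. Among 12 other genes tied to complexes IV and V, 8 were lower and 1 higher at B16 day 8 (27.3% and 28.6% of all genes). The higher one was Slc25a5, an ADP/ATP carrier of the inner membrane (1.06 ± 0.07, limma adjusted p = 2.87e-07).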

How the data were processed

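Poly-A RNA was sequenced from 23 libraries. Per the submitters' processing notes, the reads were handled with TopHat2 2.0.10, cutadapt, DESeq2 1.6.3 and HTSeq 0.6.1p1 on mm10. The sources used here do not give the annotation, the strandedness or the handling of reads with several matches. The authors deposited 1 table of normalized counts per model, a signal that equals reads divided by 1 factor per library: in each library 100% of values were whole multiples of 1 step within 0.001. The step lies near 1 in 4 CT26 libraries.

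limma 3.58.1 (R 4.3.3) was fitted per model with a trend on log2(value + 1), a mean per day and genes with a mean of at least 5; all libraries of a model share 1 variance estimate. Tests were 2-sided, with Benjamini-Hochberg adjustment over all genes and a threshold of 0.05. Fold changes are on the log2(value + 1) scale, which understates changes of low genes. Alternatives were a pseudocount of 5, no filter, equal totals, a replicate block, edgeR 4.0.16 (TMM, quasi-likelihood) on recovered reads, leaving out each library and, added later, a length correction. The fit was tested on simulated data. Named members were the 2 most abundant per complex, tissue-restricted isoforms with their partners, and up to 4 called genes per comparison and direction; others were named after their values were seen. The values of 1 member are not reported here. Members and lists were chosen with earlier results of these data known. Positions, lengths and shared stretches come from GENCODE vM21 (GRCm38), promoters from RefSeq.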

Additional observations from a re-analysis of the deposited data

Results flagged for a closer look

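The results listed here are the named members whose change from day 0 differed between the models in the joint limma fit, given as the CT26 change minus the B16 change on the log2 scale.

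At day 4 the difference was positive for Atp5e (0.90), Uqcrh (0.81), Ndufb7 (0.80) and Ndufa2 (0.71). It was negative for Uqcrc2 (-0.59), Atp5a1 (-0.46) and Atp5b (-0.37), 2 of them subunits of the F1 head. The Ndufa2 call was the weakest, with a limma adjusted p = 0.0472 that rose to between 0.0584 and 0.143 without any 1 of 9 libraries.

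At day 8 Ndufa5 (2.58), Uqcrh (1.48), Ndufb7 (1.45) and Atp5l (1.31) were positive. Cox7b (-0.95), Atp5b (-0.75), Uqcrc2 (-0.63) and Atp5sl (-0.59) were negative. Ndufa5 rests on low counts, and its call was lost with equal totals (0.0628), with the length correction (0.0821) and without any 1 of 7 libraries (0.0503 to 0.127). That of Atp5sl was lost without either of 2 libraries (0.0531 and 0.0509).

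At day 11 Cox6c (1.06), Ndufb7 (0.96), Cox7c (0.94) and Ndufa8 (0.93) were positive, and Atp5sl (-0.78), Uqcrc2 (-0.63), Ndufa10 (-0.51) and Atp5c1 (-0.34) were negative. The Ndufa10 call was lost without any 1 of 6 libraries (0.0515 to 0.112).

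Groups held 2 or 3 libraries, too few for a check of single samples against the rest.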

How the results depend on the processing

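For B16 day 8 and day 11 against day 0, the members called in either direction together stayed within 1.5 times of the reported count under every alternative run. The lower calls outnumbered the higher ones in each. Taken alone, the lower calls went from 53 to 32 at day 8 and from 51 to 31 at day 11 with the length correction. The higher calls went from 6 to 13 and from 2 to 5. With libraries scaled to equal totals the calls became 8, 21 and 34 in CT26 at days 4, 8 and 11, 13 for CT26 day 11 against day 4 (where the balance reversed) and 22 for the model difference at day 11. Medians moved with this scaling to -0.27 and -0.33 in CT26 at days 8 and 11, -0.07 for CT26 day 11 against day 4, -0.54 in B16 at day 11, -0.11 for B16 day 11 against day 4 and 0.25 for the model difference at day 8. With the length correction B16 day 4 had 30 calls, the B16 medians were -0.16, -0.15 and -0.15, and those of the model difference 0.10, 0.18 and 0.20. edgeR called 2 members at CT26 day 4, and kept 2 of the 4 complex II calls at CT26 day 11.

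Same-numbered replicates deviated together weakly at most (r of -0.163 to 0.223 over 18 pairs in CT26, 2 of them over 0.1, and -0.107 to 0.226 over 15 in B16, 1 over 0.1). Such values cannot show whether same-numbered libraries share an animal or a batch. The main fit did not use the number as a pairing. A fit with the replicate number as a block gave 0 calls at CT26 day 4 and 1, higher, for B16 day 11 against day 4.

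Leaving out 1 library at a time gave 0 to 1 calls at CT26 day 4, 1 to 6 at day 8, 16 to 31 at day 11 and 11 to 18 for day 11 against day 4. In B16 it gave 31 to 47 at day 4 and 0 to 1 for day 11 against day 4. The model difference had 8 to 25 calls at day 4 and a median of 0.21 to 0.46 at day 11. Where a group was left with 1 library, it was assumed to vary like the others. The cause of these shifts was not tested, and shares over all genes were not counted for fits that leave out a library. At the lowest levels (Ndufs5, Ndufa5, Atp5s and Cox6b2, low counts) depth limits the precision.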
